A study of Mus musculus with 3 samples.

Results

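Neurons sorted from the hindbrain of Glp1rEYFP mice fell into a large group with transcripts of the channel gene *Pkd2l1* and a smaller, mixed remainder without them, and the remainder is described here. Neurons were chosen by their counts of unique molecular identifiers (UMIs, each standing for 1 captured transcript). A barcode needed at least 3000 UMIs in all, at most 20% of them from mitochondrial genes, at least 1 UMI of the synaptic genes *Syt1* and *Snap25*, and 0 UMIs of *Pkd2l1*, of the oligodendrocyte gene *Olig1* and of the astrocyte gene *Aqp4*. Of 8145 barcodes with at least 3000 UMIs in 3 libraries, 59 met this rule, 20 in replicate 1 and 39 in replicate 2 of the Glp1rEYFP libraries. They were 20.6% (95% CI, 13.1% to 30.0%) and 40.2% (95% CI, 30.4% to 50.7%) of the 97 neurons that passed every other part of the rule in each library, and the other 77 and 58 neurons had *Pkd2l1*. Each library held cells sorted for EYFP by flow cytometry from hindbrain pooled from 4 to 6 male mice aged 4 to 6 weeks, and was made with the 10x Chromium 3′ v3 kit. The name of the genotype ties the EYFP reporter to *Glp1r*, and how the reporter was driven in these mice is not given in the sources used here. The p-values below rest on how far differences between neurons without and with *Pkd2l1* varied between these libraries, and on spread borrowed from other genes. Nothing states that the libraries came from separate pools of mice, so that variation may be technical. Another library, from GiprEYFP mice of the same sex and age, is used for values set side by side.

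GLP-1 receptor signaling in the dorsal vagal complex, which comprises the area postrema, the nucleus of the solitary tract and the dorsal motor nucleus of the vagus, lowers food intake and can cause nausea. Excitatory neurons of the hindbrain load glutamate into vesicles with the transporter encoded by *Slc17a6*, whereas inhibitory neurons load GABA and glycine with the transporter encoded by *Slc32a1*, make GABA with *Gad1* and *Gad2*, and take up glycine with *Slc6a5*. Neurons that contact the cerebrospinal fluid (CSF) around the central canal are GABAergic and are recognized by *Pkd2l1* together with *Pkd1l2*, *Nkx6-1* and the transcription factor genes *Gata2*, *Gata3* and *Tal1*.

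Of the 59 barcodes, 1 in replicate 1 stood apart and went against its label. It held 147309 UMIs, 24.9% of all UMIs of the members in that library, of which 40395 were from *Ttr* and 182 from *Folr1*, genes of the choroid plexus epithelium. It had 2 UMIs of *Syt1*, 1 of *Snap25* and 0 of *Stmn2*, so its neuronal identity rested on 3 UMIs. Levels and numbers of neurons below are therefore given over the other 58 neurons, 19 in replicate 1 and 39 in replicate 2, while the fits keep it, since it met the rule. Fitted log2 differences therefore need not equal those of the levels printed beside them, and a fit without this barcode is given where a call or a list count changed. The 58 neurons had medians of 22169 and 17618 UMIs and 5796 and 5317 genes. The neurons with *Pkd2l1* were shallower, with medians of 13539 and 15091 UMIs, so a share of neurons with a UMI is compared between these groups after each neuron was thinned to 3000 UMIs. No barcode with at least 3000 UMIs was shared between the Glp1rEYFP libraries, they shared 3 and 2 such barcodes with the GiprEYFP library, and no neuron without *Pkd2l1* shared its barcode with another such neuron.

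The neuronal label held for the 58. *Stmn2* and *Uchl1* each had a UMI in 57 of 58 neurons, *Elavl4* in 54 and *Tubb3* in 58, while *Rbfox3*, which encodes the nuclear protein NeuN, had one in 40. Marker genes of other cells were measured in the same neurons. The summed level of the 8 oligodendrocyte markers was 155 counts per 1000000 UMIs (CPM) in replicate 1 and 116 CPM in replicate 2, with *Olig1* at 0 by the rule. The 9 markers of astrocytes and ependymal cells summed to 419 and 421 CPM, most of it from *Aldoc*, with 6 and 3 of the 9 at 0, and the 3 smooth muscle markers to 279 and 167 CPM. The 5 microglial markers summed to 4.50 and 0 CPM, the 5 pericyte markers to 15.8 and 7.31 CPM, and the 4 endothelial markers to 9.00 and 1.22 CPM. Empty droplets also held RNA, which bears on how a UMI can be read. *Acta2*, a smooth muscle gene, had a UMI in 85.7% of the 357 and 69.6% of the 191 oligodendrocyte barcodes of replicates 1 and 2, so its UMIs in 50 of the 58 neurons were not read as expression. These oligodendrocyte barcodes, with medians of 11916 and 11047 UMIs, give a background share for each gene. Of the 154 genes with a UMI in the 58 neurons on the lists of transmitter, peptide, receptor, transcription factor and CSF-contacting neuron genes, 138 had a UMI in under 5% of these barcodes in both libraries (at most 3.64%). The background share is printed for genes above this that are read below.

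*Pkd2l1* itself was also found outside neurons. A UMI of it was found in 20.4% and 22.5% of the oligodendrocyte barcodes, so a single UMI does not show that a neuron transcribed it. Just outside the rule lay 4 neurons with 1 UMI of *Pkd2l1*, 2 in each library. These had 0 or 1 UMI of *Pkd1l2*, 0 of *Gata2* and of *Gata3* and 4 to 26 UMIs of *Nefl*, a neurofilament gene. Neurons with more *Pkd2l1* had 0 UMIs of *Nefl*. Another 3 neurons had 2 UMIs of *Pkd2l1*. The median among all neurons with *Pkd2l1* was 11 and 12 UMIs. Just inside the rule, 4 of 19 and 13 of 39 neurons had at least 2 UMIs in all of the other 8 genes of the CSF-contacting neuron list, and the highest sums were 11 and 9 UMIs where the medians with *Pkd2l1*, at lower depth, were 18 and 19.

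Every one of the 58 neurons except 3 could be placed by its vesicular transporter, and none had both. *Slc17a6* had a UMI in 20 neurons (34.5%; 95% CI, 22.5% to 48.1%), 8 of 19 in replicate 1 and 12 of 39 in replicate 2. *Slc32a1* had a UMI in 35 neurons (60.3%; 95% CI, 46.6% to 73.0%), 11 of 19 and 24 of 39. The share of excitatory neurons thus lay between 30.8% and 42.1% in the libraries, and their intervals overlapped widely. In the oligodendrocyte barcodes at most 0.560% had a UMI of either gene. The intervals here and below cover counting error only. The remaining 3 neurons came from replicate 2. Of these, 1 had 29 UMIs of *Slc17a8*, the gene of another vesicular glutamate transporter, 8 UMIs of *Gata3* and no *Gad1* or *Gad2*, whereas the others, with 3444 and 6486 UMIs, had *Gad1* and *Gad2*.

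**Figure D1:**
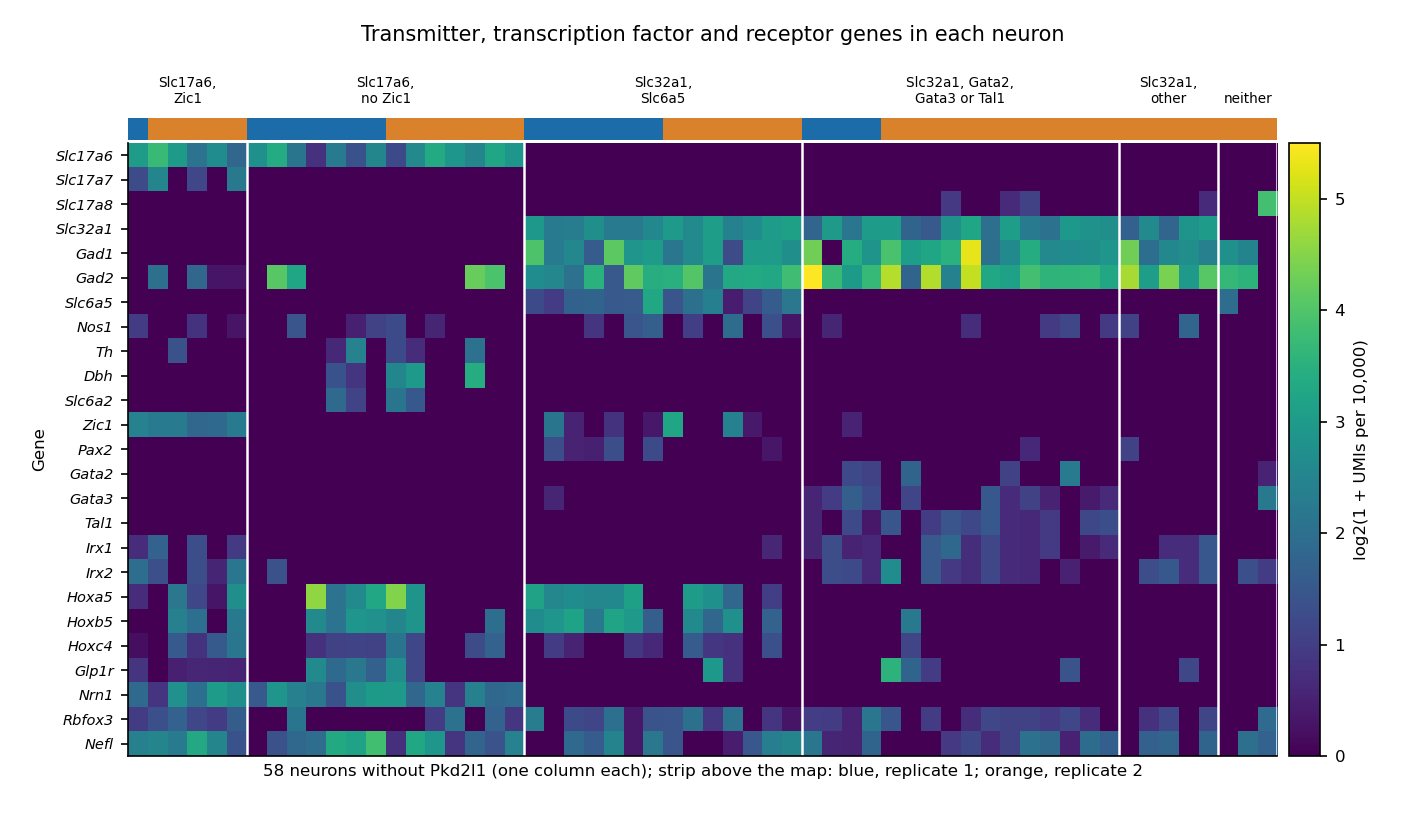
Levels of 25 genes (rows) in each of the 58 neurons without *Pkd2l1* (columns), as log2 of 1 plus UMIs per 10000, grouped by the genes named above the map, with the library of each neuron in the strip. *Slc17a6* fills the left 20 columns and *Slc32a1* the next 35, with no column holding both, and the *Hox* and *Irx* rows are bright in different sets of columns.

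Glutamate decarboxylase crossed the line between these classes in 1 direction. *Gad2* had a UMI in all 35 *Slc32a1* neurons and also in 8 of 20 *Slc17a6* neurons, at up to 50 UMIs, while *Gad1* had one in 34 of the *Slc32a1* neurons and in 0 of the *Slc17a6* neurons. At most 1.05% of oligodendrocyte barcodes had a UMI of *Gad2*. The other vesicular glutamate transporter genes were rarer. *Slc17a7* had a UMI in 4 neurons, all of them with *Slc17a6*, and *Slc17a8* in 5 neurons, none of them with *Slc17a6*. *Nos1*, the gene of neuronal nitric oxide synthase, had a UMI in 8 of 19 and 14 of 39 neurons at 65.3 and 45.1 CPM, in 8 of the *Slc17a6* and 14 of the *Slc32a1* neurons. Of the acetylcholine genes, *Chat* and *Slc18a3* had 0 UMIs in the 58 neurons, which allows a share of neurons with a UMI of up to 5.17% and does not limit the share that express them. The choline transporter gene *Slc5a7* had 4 and 5 UMIs, in 4 of 19 and 3 of 39 neurons.

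Genes of noradrenaline synthesis and uptake were found together in a few *Slc17a6* neurons. The sets described in this and the following paragraphs were chosen after their values were seen. *Dbh*, which encodes dopamine β-hydroxylase, had a UMI in 5 neurons, 2 in replicate 1 and 3 in replicate 2, at 2 to 27 UMIs, and all 5 had *Slc17a6*. *Th*, which encodes tyrosine hydroxylase, had a UMI in the same 5 and in 1 other neuron, also with *Slc17a6*. *Ddc*, the gene of the decarboxylase between them, was in all 5 at 3 to 22 UMIs, and the noradrenaline transporter gene *Slc6a2* in 4. Over all 58 neurons, *Ddc* had a UMI in 26.3% and 15.4%, below the 32.5% and 29.8% of oligodendrocyte barcodes, and the 1 or 2 UMIs of it in each of 4 *Slc32a1* neurons were read as background.

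The *Dbh* neurons also had UMIs of several receptor genes. *Glp1r* was found in 4 of the 5, at 2 to 9 UMIs. *Ramp3*, whose protein joins the calcitonin receptor to form an amylin receptor, had a UMI in 4, while *Calcr*, the calcitonin receptor gene itself, had 2 UMIs in 1 of the 5. *Casr*, the calcium-sensing receptor gene, was in 3. The cannabinoid receptor gene *Cnr1* was in 4. The neuropeptide Y receptor gene *Npy1r* was in 4 at 1 to 4 UMIs, while 3.08% and 2.09% of oligodendrocyte barcodes had a UMI of it and empty droplets held 127 and 97.1 CPM, so the part of free RNA in these few UMIs was not settled. *Rbfox3* had a UMI in 0 of the 5, whereas *Nefl* had one in all 5. A single *Dbh* neuron of replicate 2 held all 19 UMIs of *Gfral*, the receptor gene for the nausea signal GDF15. The same neuron had 648 UMIs of *Cartpt*, 328 of *Grp*, 194 of *Cck*, 63 of *Npff*, 27 of *Dbh*, 9 of *Th* and 50 of *Gad2*, with 28029 UMIs in all and 0 of *Glp1r*.

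In contrast to the *Dbh* neurons, which lacked it, 6 *Slc17a6* neurons, 1 in replicate 1 and 5 in replicate 2, had *Zic1*, a transcription factor gene of dorsal hindbrain lineages, at 5 to 28 UMIs. All 4 neurons with *Slc17a7* were among these 6. *Glp1r* had a UMI in 5 of the 6, though at 1 to 5 UMIs in neurons with a median of 40346 UMIs. The orexin receptor gene *Hcrtr2* was in 4 and *Crhr1*, a receptor gene for corticotropin-releasing hormone, in 4. The 14 *Slc17a6* neurons without *Zic1*, 7 in each library, included the 5 with *Dbh*. *Glp1r* had a UMI in 6 of the 14, at 2 to 9 UMIs, *Cnr1* in 10 and *Adcyap1*, the gene of the neuropeptide PACAP, in 6. *Nrn1*, which encodes the neuritin protein of excitatory neurons, had a UMI in all 20 *Slc17a6* neurons and in none of the other 38.

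The *Slc32a1* neurons fell into sets that overlapped little. *Slc6a5*, the mark of glycinergic neurons, had a UMI in 14 of the 35, 7 in each library, at 1 to 32 UMIs. At least 1 of *Gata2*, *Gata3* and *Tal1* was found in 17 of the 35, and only 1 neuron had *Slc6a5* and 1 of these 3 genes together. A further 5 *Slc32a1* neurons, all in replicate 2, had none of them. In neurons with *Slc6a5*, *Pax2*, a gene of the lineages that give rise to inhibitory interneurons of the dorsal hindbrain and spinal cord, was found in 6 of 15 and *Lbx1* in 7 of 15. Over the 18 neurons with at least 1 of these 3 genes, which had to be above 0 by that choice, *Gata3* stood at 116 and 80.6 CPM, *Gata2* at 57.8 and 59.4 CPM and *Tal1* at 41.3 and 93.4 CPM. Over all neurons with *Pkd2l1* the levels were 172 and 153 CPM, 145 and 111 CPM, and 114 and 93.4 CPM. The choice of the 18 raised their levels of these genes, so nothing is read from the like level of *Tal1* in replicate 2. The other levels were lower in the 18 in spite of that choice. Of the other CSF-contacting neuron genes, *Pkd1l2* had 0 UMIs in all 58 neurons and *Nkx6-1* had a UMI in 4. Of the 18, 1 lacked *Slc32a1*.

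Genes of position along the body axis divided the same sets. The 5 *Hox* genes on the list (*Hoxa5*, *Hoxb3*, *Hoxb5*, *Hoxb8* and *Hoxc4*) are expressed from the caudal hindbrain backwards, and other *Hox* genes were not counted. At least 1 of the 5 had a UMI in 28 of the 58 neurons. *Irx1* or *Irx2*, Iroquois genes that pattern the early brain, also had a UMI in 28. Only 6 neurons had genes of both families, 5 of them *Zic1* neurons with *Slc17a6*, and 8 had neither. In neurons with *Slc6a5*, 13 of 15 had a *Hox* gene and 1 an *Irx* gene. In those with *Gata2*, *Gata3* or *Tal1*, 2 of 18 had a *Hox* gene and 16 an *Irx* gene. The *Dbh* neurons had *Hox* genes in 5 of 5 and *Irx* genes in 0 of 5, and all 14 *Slc17a6* neurons without *Zic1* had *Hox* genes in 8 and *Irx* genes in 1. After thinning to 3000 UMIs, 63.2% and 30.8% of the neurons kept a UMI of a *Hox* gene, against 72.7% and 69.0% with *Pkd2l1*, and 1 and 5 neurons one of *Irx1* or *Irx2*, against none with *Pkd2l1*. Of the 67 GiprEYFP neurons without *Pkd2l1*, at their greater depth, 63 had a *Hox* gene and 1 an *Irx* gene. Unthinned and by library, *Hox* genes were in 12 of 19 and 16 of 39 neurons and *Irx* genes in 6 of 19 and 22 of 39, and the difference between the libraries was not tested.

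*Glp1r*, after which the mice were named, was found in a minority. It had a UMI in 5 of 19 (26.3%; 95% CI, 9.15% to 51.2%) and 13 of 39 neurons (33.3%; 95% CI, 19.1% to 50.2%), at 72.0 CPM (95% CI, 49.3 to 102) and 51.2 CPM (95% CI, 36.9 to 69.2). With *Pkd2l1* the level was 323 and 306 CPM. The level was lower without *Pkd2l1* in both libraries, by 2.60 ± 0.21 on the log2 scale (SE; adjusted p = 5.15e-06, edgeR) in the fit that holds the choroid plexus barcode and by 2.50 ± 0.18 in the fit without it. In the printed levels alone, it fell by 2.17 and 2.58. After thinning to 3000 UMIs, 15.8% and 15.4% of the neurons kept a UMI, against 51.9% and 55.2% with *Pkd2l1*. No oligodendrocyte barcode had a UMI of *Glp1r* (0 of 357 and 0 of 191), which allows shares of up to 0.840% and 1.57%. EYFP was found in 16 of 19 and 32 of 39 neurons, but also in 71.1% and 74.9% of oligodendrocyte barcodes, and its level was lower without *Pkd2l1* by 1.23 ± 0.20 on the log2 scale (adjusted p = 0.000748, edgeR). The part of free EYFP RNA in this difference was not tested.

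The classes with *Glp1r* were not the same in the libraries, a difference that was not tested. In replicate 1 all 5 positive neurons were *Slc17a6* neurons, 4 of them without *Zic1*, where the level over 7 neurons was 251 CPM (95% CI, 166 to 366) against 323 CPM with *Pkd2l1*, and 0 of 11 *Slc32a1* neurons had a UMI. In replicate 2, 2 of the 7 *Slc17a6* neurons without *Zic1* had 2 and 8 UMIs and the other 5 had 0, 4 of the 5 with *Zic1* had 1 or 2, and 7 of 24 *Slc32a1* neurons had 1 to 8. Those 7 held 25 UMIs (54.9 CPM; 95% CI, 35.5 to 81.0). They were mixed, since 3 had a *Hox* gene and 4 an *Irx* gene, and 4 had *Gata2*, *Gata3* or *Tal1*. Over both libraries, 11 of 20 *Slc17a6* neurons, 7 of 35 *Slc32a1* neurons and 0 of 3 others had *Glp1r*. The classes were not compared with a test, because 8 *Slc17a6* neurons in replicate 1 were under the 10 per class and library that the design required.

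**Figure D2:**
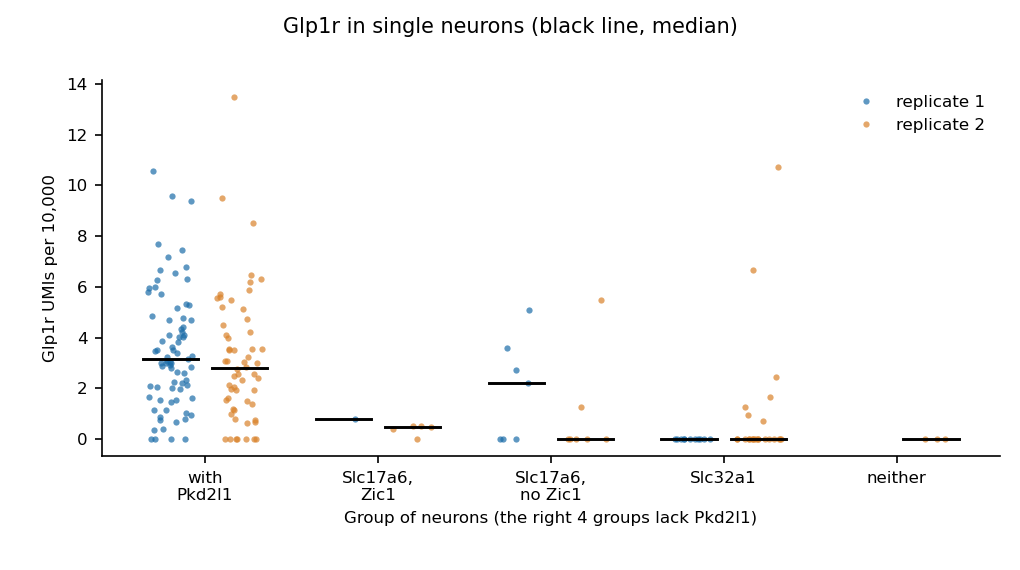
*Glp1r* UMIs per 10000 UMIs (vertical axis) in single neurons with *Pkd2l1* and in 4 groups without it, by library (colors), with black lines at the medians. In replicate 1, 4 of 7 *Slc17a6* neurons without *Zic1* lay above 0 and all 11 *Slc32a1* neurons lay at 0, while 7 of 24 *Slc32a1* neurons of replicate 2 lay above 0.

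Peptide precursor genes were spread thinly. Of the 48 on the list, 27 had a UMI in the 58 neurons, with a median of 3 genes per neuron and a range of 0 to 9. Genes such as *Gcg*, *Vip*, *Trh* and *Kiss1* were at 0. Only 8 reached 10% of the barcodes that met the rule in each library, namely *Adcyap1*, *Calca*, *Nppc*, *Penk*, *Pnoc*, *Pomc*, *Sst* and *Vgf*. *Vgf*, a granin-like gene of secretory neurons, was the most common, in 10 of 19 and 25 of 39 neurons at 356 and 385 CPM. *Nppc*, the gene of C-type natriuretic peptide, was in 6 and 15 neurons at 65.3 and 82.9 CPM, against a background share of 16.5% and 12.04%. *Pnoc*, the gene of nociceptin, was in 5 and 11 neurons, all of them *Slc32a1* neurons, and 9 of these 16 had *Slc6a5*. *Sst*, the gene of somatostatin, was in 4 and 10 neurons and *Penk*, the enkephalin precursor gene, in 4 and 8, with 5 neurons holding both. *Adcyap1* was in 4 and 6 neurons, 9 of the 10 with *Slc17a6*. *Calca* was in 3 and 5 neurons at 29.3 and 9.75 CPM. *Pomc* had a UMI in 9 and 12 neurons, but 4.20% and 5.24% of oligodendrocyte barcodes had one too, empty droplets held 92.2 and 130 CPM of it, and apart from 1 neuron of replicate 2 with 97 UMIs no neuron had over 4.

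Several peptide genes owed most of their UMIs to 1 neuron. The richest neuron held 100% of the 328 UMIs of *Grp*, 96.9% of those of *Npff*, 93.4% of *Cartpt*, 82.6% of *Cck* and 77.6% of *Pomc*, and the neuron with *Gfral* was the richest for the 4 genes before *Pomc*. The neuron richest in *Pomc* was a *Zic1* neuron with *Slc17a6* that also had 60 UMIs of *Penk*, 17 of *Nts* and 13 of *Tac1*, a gene with a background share of 5.32% and 1.57%. *Gal* had 84 UMIs in 1 *Slc17a6* neuron of replicate 1 and 24 in 1 *Dbh* neuron of replicate 2. *Npy* had 67 of its 68 UMIs in 4 *Slc6a5* neurons of replicate 1. In *Slc6a5* neurons of replicate 1 *Cartpt* also reached 36 UMIs, and a *Slc6a5* neuron of replicate 2 had 89 UMIs of *Sst* and 10 of *Penk*. By contrast, the richest neuron held 15.0% of the UMIs of *Vgf*, 20.6% of *Nppc* and 29.4% of *Pnoc*.

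**Figure D3:**
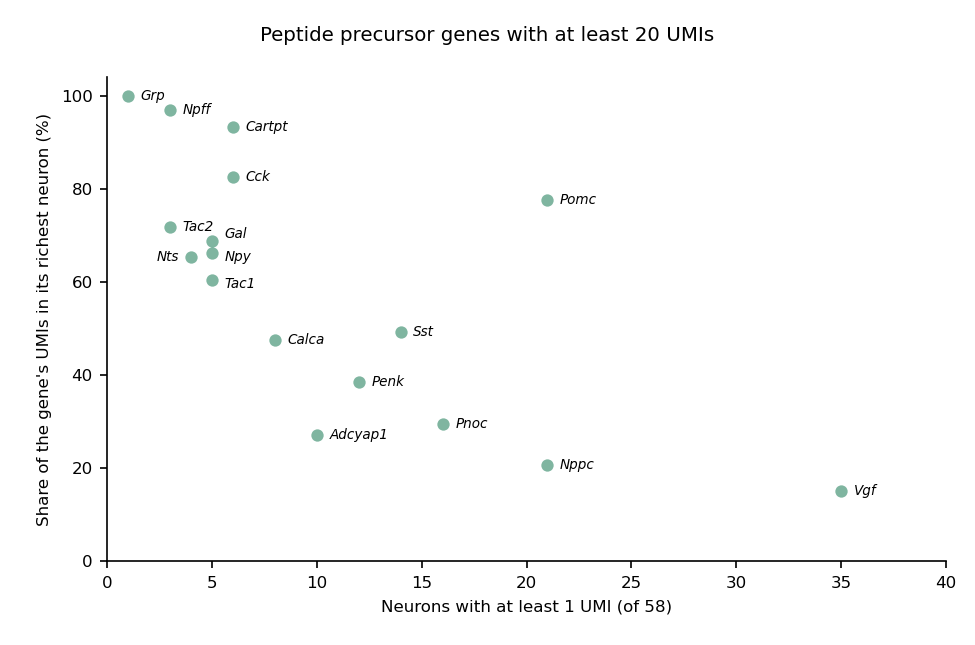
Each point is a peptide precursor gene with at least 20 UMIs over the 58 neurons, placed by the number of neurons with a UMI (horizontal axis) and by the share of its UMIs in its richest neuron (vertical axis). *Grp*, *Npff*, *Cartpt* and *Cck* lie at the upper left, with 82.6% to 100% of UMIs in 1 neuron, and *Vgf* lies at the lower right, with 35 neurons and 15.0%.

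The genes of peptide processing were common to most neurons. All 10 on the list passed 10% in each library. *Pcsk1n*, which encodes an inhibitor of prohormone convertase 1, and *Scg5*, which encodes the chaperone of prohormone convertase 2, had a UMI in all 58 neurons, though 83.8% and 87.4% of oligodendrocyte barcodes had a UMI of *Pcsk1n* and 67.8% and 71.2% one of *Scg5*. *Cpe*, the gene of carboxypeptidase E, was in 57, *Chgb* in 55, *Chga* in 54, *Scg3* in 52, *Scg2* in 51, *Pcsk2* in 50 and *Pam* in 48. UMIs of *Cpe* (26.1% and 29.8% of oligodendrocyte barcodes), *Scg3* (29.7% and 25.7%), *Pcsk2* (17.1% and 11.5%) and *Pam* (38.1% and 35.6%) were found there too. Free RNA and transcription by the oligodendrocytes cannot be told apart in these shares. *Pcsk1*, the convertase gene itself, was in 5 of 19 and 13 of 39.

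Receptor genes were numerous but low. Of the 83 on the lists, a neuron had a UMI of a median of 10, with a range of 3 to 25. Among the receptors for gut hormones and feeding signals, besides *Glp1r*, *Ret*, the co-receptor gene of GFRAL and of other ligands of this family, was in 7 of 19 and 12 of 39 neurons at 22.5 and 19.5 CPM. *Npy1r*, whose free RNA in empty droplets is given with the *Dbh* neurons, was in 8 and 9 and *Npy5r* in 6 and 10. *Ramp2* was in 6 and 9 neurons, *Insr* in 4 and 18 and *Ghr* in 4 and 7, and 17.6% and 15.7% of oligodendrocyte barcodes also had a UMI of *Insr*. *Ramp3* was in 5 of 19 and 3 of 39 at 78.8 and 24.4 CPM, though 1 neuron of replicate 1 held 24 of the 35 UMIs there. Most other members were rarer. *Npy2r* was in 3 neurons, *Calcr* in 3, *Ghsr* in 4 and *Gfral*, *Lepr*, *Mc4r* and *Gipr* in 1 each, and *Gcgr*, *Glp2r*, *Mc3r* and *Prlhr* were at 0.

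Receptors for neuropeptides were led by *Adcyap1r1*, the PACAP receptor gene, in 14 of 19 and 20 of 39 neurons at 85.5 and 53.6 CPM, and by *Oprl1*, the nociceptin receptor gene, in 10 and 24 neurons at 36.0 and 62.2 CPM. *Oprk1*, which encodes the κ-opioid receptor, was in 3 and 11, *Npr2*, the receptor gene for C-type natriuretic peptide, in 4 and 8, and *Sstr2* in 5 and 5. *Crhr1*, *Hcrtr1*, *Ntsr2* and *Kiss1r* passed 10% in each library with 6 to 8 neurons each, but 6.16% and 4.71% of oligodendrocyte barcodes had a UMI of *Ntsr2*. The μ-opioid receptor gene *Oprm1* was in 1 and 7 neurons.

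For small transmitters, *Cnr1* was the most widespread receptor gene, in 12 of 19 and 23 of 39 neurons at 122 and 75.6 CPM, with 14 of the *Slc17a6* and 21 of the *Slc32a1* neurons. The serotonin receptor gene *Htr2c* was in 8 and 13 neurons at 96.8 and 116 CPM, 10 in each class, and *Htr7* and *Htr2a* were in 4 and 15 and in 3 and 8. The muscarinic receptor genes *Chrm2* and *Chrm3* were in 8 and 11 and in 4 and 10 neurons, and the nicotinic subunit genes *Chrna4* and *Chrnb2* in 8 and 12 and in 7 and 15. *Hrh3*, a histamine receptor gene, was in 4 and 12, and the adrenoceptor genes *Adra2c*, *Adrb1* and *Adra1b* in 4 and 10, in 2 and 7 and in 2 and 6. The background share of *Adra1b* was 6.44% and 6.28%.

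**Figure D4:**
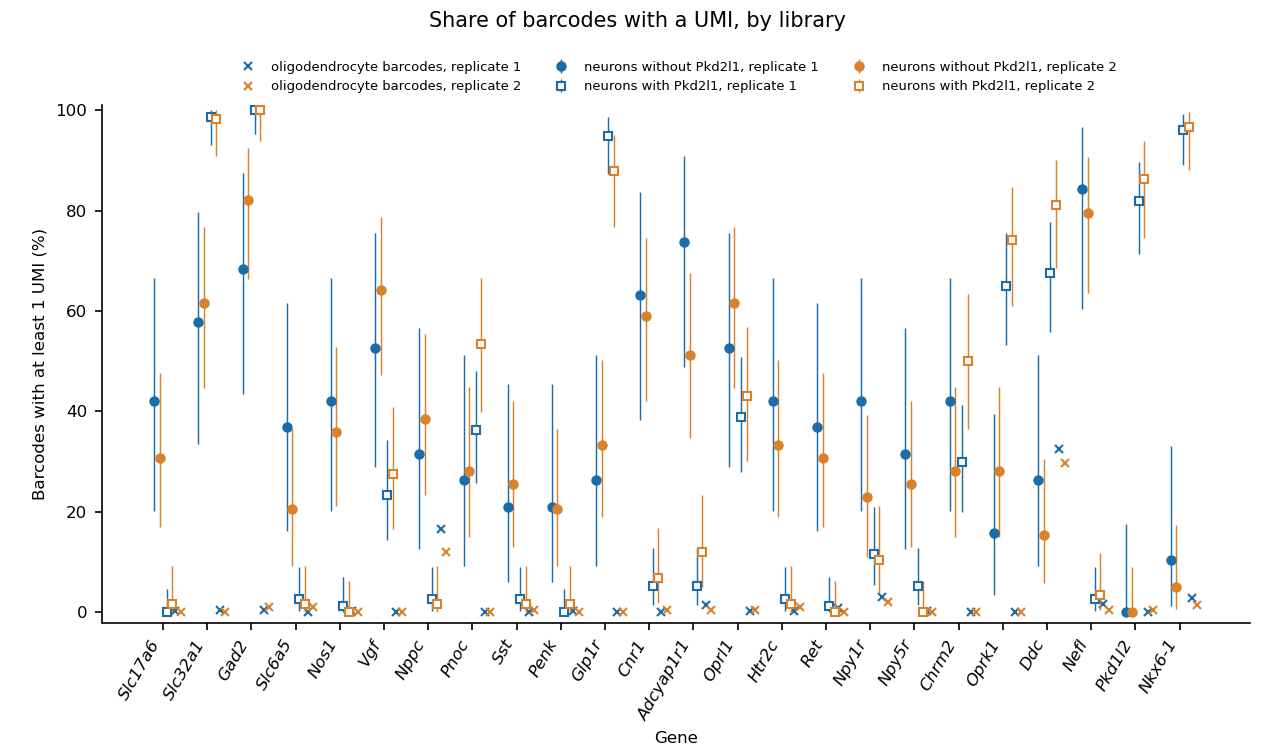
Share of barcodes with at least 1 UMI (vertical axis, %) for 24 genes in neurons without *Pkd2l1* (filled circles), neurons with *Pkd2l1* (open squares) and oligodendrocyte barcodes (crosses) of each library (colors), with exact 95% binomial intervals for the neurons; depth was not equalized. *Glp1r* was in 26.3% and 33.3% of neurons without *Pkd2l1* and in 94.8% and 87.9% of those with it (15.8% and 15.4% against 51.9% and 55.2% once thinned), and *Ddc* without *Pkd2l1* lay below its crosses.

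The remainder was then compared with the neurons with *Pkd2l1*, with counts summed per library and group and the library as a block. Of 9116 genes tested, 1004 (11%) were higher and 751 (8.24%) lower without *Pkd2l1*. Without the choroid plexus barcode, 1618 (17.6%) and 1515 (16.4%) of 9212 genes passed. The genes of the rule itself were not counted. The groups were divided by *Pkd2l1*, so genes that go with *Pkd2l1* in a neuron type differ along with it. Each fit had 2 libraries and 1 residual degree of freedom, so the spread was borrowed from other genes. In the fit without the choroid plexus barcode, and in that on thinned counts, edgeR gave all genes of like level 1 common spread (infinite prior degrees of freedom, against 12.04 with the barcode), so smaller p-values in these fits, and the larger counts without the barcode, are not stronger evidence. DESeq2 on the same sums called 251 and 206 genes. Of the 65 listed or ranked genes that edgeR called, DESeq2 kept 36, lost 21 and gave no adjusted p for 8. A gene passes the filter on low counts more easily where 1 group is high, so list counts below describe the tested genes alone.

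Genes of glutamate, glycine and nitric oxide transmission were higher without *Pkd2l1*. *Slc17a6* was at 189 and 228 CPM without *Pkd2l1* and at 0 and 30.4 CPM with it, and all 26 UMIs of the latter were in 1 neuron with 1 UMI of *Pkd2l1*. It was higher by 3.85 ± 0.54 on the log2 scale (adjusted p = 0.000295, edgeR; 0.360 in DESeq2). *Slc6a5* was higher at 131 and 46.3 CPM against 10.3 and 10.5 CPM (log2 difference 2.78 ± 0.39, adjusted p = 0.000285, edgeR), and *Nos1* at 65.3 and 45.1 CPM against 0.855 and 0 CPM (6.23 ± 0.69, adjusted p = 5.02e-05, edgeR). Of the monoamine genes, *Th* was higher, at 27.0 and 19.5 CPM against 1.71 and 0 CPM (4.20 ± 0.82, adjusted p = 0.00304, edgeR; no adjusted p in DESeq2), and *Ddc* lower, at 63.0 and 52.4 CPM against 129 and 172 CPM (−1.62 ± 0.24, adjusted p = 0.000459, edgeR). The GABA genes did not pass. *Slc32a1* stood at 295 and 315 CPM against 344 and 358 CPM (−0.43 ± 0.18, adjusted p = 0.118, edgeR; −0.31 ± 0.13 and 0.0529 without the choroid plexus barcode), and *Gad1* and *Gad2* had fitted differences of −0.36 and −0.20. With each neuron thinned to 3000 UMIs the direction of *Gad2* turned, to 0.51 (adjusted p = 0.0204, edgeR).

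Peptide genes were mostly too low to test. Of the 48, 12 passed the filter on low counts, and 9 of these were higher (11% of all genes) and none lower. Several were near 0 with *Pkd2l1* and passed the filter through the neurons without it, so nothing is read from this count. *Penk* stood at 0 and 1.17 CPM with *Pkd2l1* and at 96.8 and 138 CPM without it (7.27 ± 0.55, adjusted p = 2.85e-06, edgeR), *Vgf* at 36.8 and 102 CPM and at 356 and 385 CPM (2.31 ± 0.25, adjusted p = 4.51e-05, edgeR), and *Nppc* at 5.13 and 1.17 CPM and at 65.3 and 82.9 CPM (4.15 ± 0.51, adjusted p = 0.000102, edgeR). *Cartpt*, *Cck*, *Gal* and *Tac1* were also called, although single neurons held 58.5% to 100% of their UMIs in each library. The others were *Sst* and *Adcyap1*. Single neurons also held much of *Sst* (27 UMIs in replicate 1 and 89 in replicate 2, of 181 in all) and of *Penk* (26 and 60, of 156 in all). DESeq2 lost *Gal*, *Sst* and *Adcyap1* (adjusted p = 0.142, 0.296 and 0.0819). *Pnoc* did not pass, with 78.8 and 61.0 CPM against 74.4 and 87.6 CPM (−0.45 ± 0.26, adjusted p = 0.244, edgeR), nor did *Pomc* or *Tac2*, though *Pomc* was called higher without the choroid plexus barcode (1.23 ± 0.28, adjusted p = 7.97e-05, edgeR). Of the 10 processing genes, 1 was higher and 2 lower, with 11% and 8.24% over all genes. *Pcsk1* was higher, though not in DESeq2 (adjusted p = 0.560), and *Pcsk1n* (1753 and 2726 CPM against 4809 and 8135 CPM) and *Scg5* were lower. Without the choroid plexus barcode 3 were higher and 3 lower, with 17.6% and 16.4% over all genes, since *Pcsk2* (0.65 ± 0.16), *Pam* (0.40 ± 0.16) and *Cpe* (−0.51 ± 0.12) also passed.

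Receptor genes differed in both directions. Of the 21 tested on the 3 receptor lists, 9 were higher and 4 lower, with 11% and 8.24% over all genes. The fit without the choroid plexus barcode gave the same counts, with 17.6% and 16.4% over all genes. In that fit the count of lower receptor genes lay near the share over all genes. The higher ones were *Htr2c* (3.99 ± 0.35, adjusted p = 8.81e-06, edgeR), *Cnr1* (2.70 ± 0.31, adjusted p = 7.06e-05, edgeR), *Adcyap1r1* (2.58 ± 0.43, adjusted p = 0.00101, edgeR), *Ramp3*, *Ret*, *Npy5r*, *Chrm3*, *Chrna4* and *Npy1r*. Besides *Glp1r*, the lower ones were *Oprk1*, at 31.5 and 24.4 CPM against 103 and 153 CPM (−2.45 ± 0.29, adjusted p = 8.16e-05, edgeR), *Drd1*, a dopamine receptor gene with 0 and 4 UMIs without *Pkd2l1* (−3.36 ± 0.69, adjusted p = 0.00405, edgeR), and *Adra2c*. *Oprl1* and *Chrm2* had differences of 0.09 ± 0.32 and −0.10 ± 0.33. *Npy1r* stood at 123 and 21.0 CPM in *Slc17a6* neurons and at 3.66 and 19.8 CPM in *Slc32a1* neurons. These levels lay below those in empty droplets given with the *Dbh* neurons, and the part of free RNA was not tested. The calls of *Npy1r*, *Adra2c* and *Chrna4* were lost without the library block, with adjusted p of 0.0769, 0.0606 and 0.0764 in edgeR. DESeq2 lost these and *Drd1* (adjusted p = 0.706, 0.551, 0.570 and 0.0703) and gave no adjusted p for *Ret*, *Npy5r* and *Chrm3*.

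Genes of the CSF-contacting neuron list go with *Pkd2l1*, which divided the groups, so their differences are a description. All 6 that were tested, other than *Pkd2l1*, were lower (8.24% of all genes), and nothing is read from this count. *Pkd1l2* had 337 and 359 UMIs with *Pkd2l1* and 0 without, which is at least 42.7-fold and 115-fold lower when 0 is set to 3 UMIs in each library (adjusted p = 0.119 in DESeq2). *Nkx6-1* had a log2 difference of −6.08 ± 0.33, *Espn*, an actin-bundling gene of microvilli, one of −4.84 ± 0.32, and *Gata2*, *Gata3* and *Tal1* differences of −3.11, −2.81 and −2.53. Among the 9 tested genes of the transcription factor list, 4 were higher and 0 lower (11% and 8.24% of all genes). Without the choroid plexus barcode 4 were higher and 1 lower (17.6% and 16.4% of all genes). The lower one was *Hoxb8*, whose libraries went opposite ways, at 42.8 and 0 CPM against 9.41 and 79.4 CPM (−1.45 ± 0.39, adjusted p = 0.00126, edgeR). Among the higher ones were *Zic1* (3.99 ± 0.44), *Lhx1* (4.09 ± 0.82) and *Hoxa5* (2.10 ± 0.32), while *Hoxb5*, at 322 and 123 CPM against 271 and 215 CPM, was not called. Among those too low to be tested, *Tlx3* was in 2 and 5 and *Lbx1* in 4 and 4 neurons.

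Genes were also ranked by the size of the difference, keeping those called whose UMIs reached 20% of neurons and 2 times the level of empty droplets on the higher side in both libraries. By the fitted value *Irx2* and *Irx1* came before the others higher without *Pkd2l1*, but for genes with 0 UMIs in a group that value depends on the prior of the fit, and the order with it. With 0 UMIs in the neurons with *Pkd2l1*, *Irx2* was at least 24.6-fold and 17.1-fold higher and *Irx1* at least 9.65-fold and 12.2-fold, both under the 37.7-fold and 39.3-fold of *Penk* with its 0 and 1 UMIs also set to 3. In replicate 1 a single neuron held 19 UMIs of *Irx2*, of 39 UMIs of *Irx1* and *Irx2* together, so the 24.6-fold bound rested largely on it. The others named by this rule were *Penk*, *Tox*, *Nos1*, *Gabrq*, which encodes the θ subunit of the GABA-A receptor, *Tafa1*, *Pcdh20* and *Nrn1*. DESeq2 lost *Irx2*, *Irx1* and *Nrn1* (adjusted p = 0.340, 0.516 and 0.0688) and gave no adjusted p for *Tox*. *Nefl*, the gene of the neurofilament light chain, was higher as well, at 367 and 284 CPM against 28.2 and 16.3 CPM (3.62 ± 0.25, adjusted p = 1.55e-06, edgeR). After thinning it was found in 52.6% and 41.0% of neurons against 2.60% and 3.45%. All its UMIs with *Pkd2l1* were in the neurons with 1 UMI of *Pkd2l1* (7 and 26 in replicate 1, 10 and 4 in replicate 2).

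Lower without *Pkd2l1* were *Pkd1l2*, *Dcn*, *Tnfaip2*, *Grap2*, *Pkhd1l1*, *Scube2*, *Myzap*, *Gm32005*, *Abcc3* and *Srd5a2*. *Dcn*, the gene of the matrix proteoglycan decorin, had 1 UMI in each library without *Pkd2l1* and 1505 and 1514 UMIs with it, where it was found in 79.2% and 72.4% of neurons (−9.46 ± 0.38, adjusted p = 1.86e-08, edgeR). *Dcn* stood on the list of vascular and leptomeningeal markers, and the other genes of that list, *Lum* and *Col1a1*, were at 0 in both libraries except for 1 UMI of *Col1a1* with *Pkd2l1* in replicate 2. *Tnfaip2*, *Grap2*, *Pkhd1l1*, *Scube2*, *Myzap* and *Gm32005* had 0 UMIs without *Pkd2l1*, and bounds on their folds ran from 2.79 for *Myzap* to 17.9 for *Tnfaip2*. Of these 6, DESeq2 lost *Tnfaip2*, *Grap2*, *Pkhd1l1* and *Scube2* (adjusted p = 0.346, 0.431, 0.545 and 0.494) and gave no adjusted p for *Myzap* and *Gm32005*. *Srd5a2*, the gene of a steroid 5α-reductase, had 0 and 2 UMIs against 91 and 198. The 3 smooth muscle markers were lower too, with *Acta2* at 176 and 105 CPM against 889 and 404 CPM, but with the highest doublet scores left out, which removed 5 and 1 neurons with *Pkd2l1* and none without, *Acta2* and *Tagln* differed by −0.37 and 0.09 (adjusted p = 0.234 and 0.869, edgeR). The astrocyte marker *Slc1a2* was higher without *Pkd2l1*, at 78.8 and 35.4 CPM against 11.97 and 8.17 CPM (2.21 ± 0.40, adjusted p = 0.00175, edgeR; 0.105 in DESeq2), while empty droplets held 182 and 130 CPM of it and *Aldoc* was called only without the choroid plexus barcode (0.33 ± 0.13, adjusted p = 0.0419, edgeR). The part of free RNA and doublets in these differences was not tested beyond the values given.

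**Figure D5:**
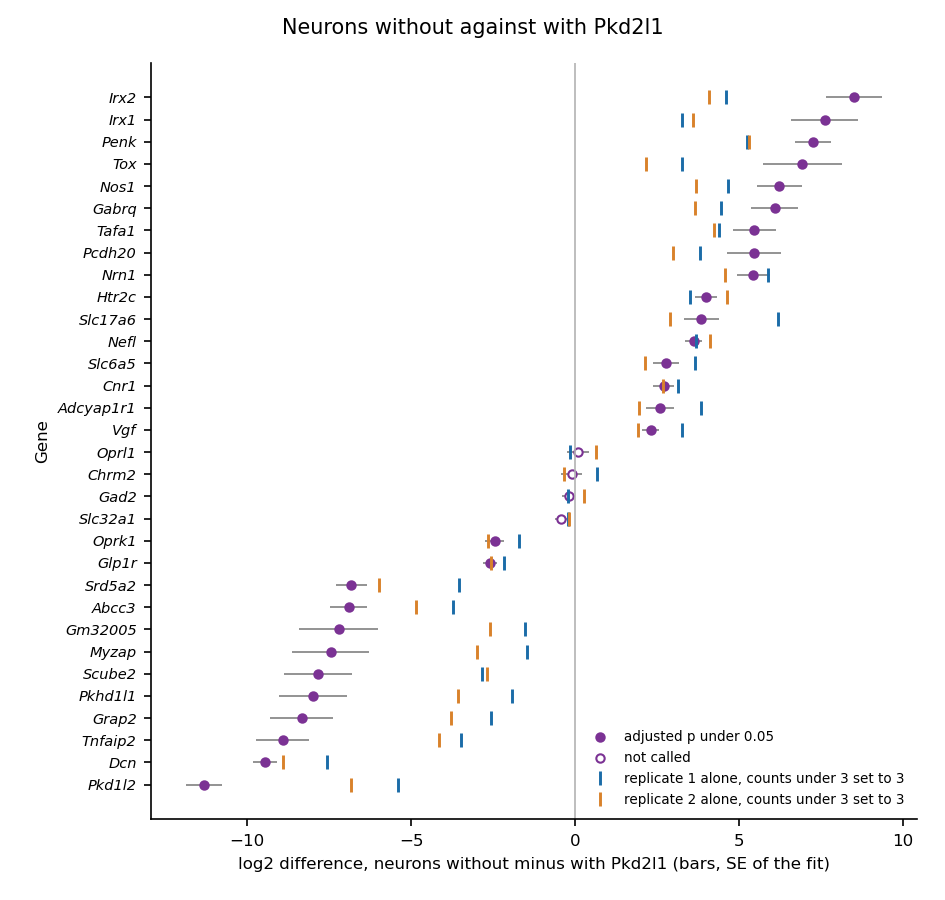
Fitted log2 differences between neurons without and with *Pkd2l1* (circles, with SE; filled where the adjusted p was under 0.05), for 19 genes chosen by size and 13 others, with the difference in each library alone (ticks, counts under 3 set to 3). Where a group had no counts the circle depends on the prior of the fit and lies beyond the ticks, which are bounds; *Oprl1*, *Chrm2*, *Gad2* and *Slc32a1* lie near 0.

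The GiprEYFP library held 67 neurons without *Pkd2l1* and 7 with it, and its values are set beside the Glp1rEYFP remainder with no test, since it is 1 library and was deeper, with a median of 29570 UMIs per neuron. It had 52 neurons with *Slc32a1* alone, 11 with *Slc17a6* alone, 2 with both and 2 with neither. *Glp1r* was in 0 of the 67, and *Gipr* in 28. *Penk* was in 37 of 67 at 610 CPM, above the 96.8 and 138 CPM of the Glp1rEYFP remainder, *Nppc* in 38 at 306 CPM and *Cnr1* in 58 at 273 CPM. On the other side, *Pnoc* was in 2 of 67 at 6.36 CPM, *Htr2c* in 3 at 11.1 CPM, *Adcyap1r1* in 8 at 6.36 CPM and *Nefl* in 13 at 45.0 CPM, each below both Glp1rEYFP values. *Slc6a5* was in 21 at 22.2 CPM.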

How the data were processed

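The authors deposited raw 10x Genomics 3′ v3 matrices of UMI counts for 32533 genes, with 27277448 and 13568994 UMIs in the Glp1rEYFP libraries and 62705038 in the GiprEYFP library. The matrix headers name Cell Ranger version 4, and the submitters' processing notes name Cell Ranger 6.1.2 and GRCm39. Members were chosen by the stated rule; members, lists and tests were chosen with earlier results of these data known. Barcodes with at most 100 UMIs gave the levels in empty droplets. CPM values carry Poisson and shares exact Clopper-Pearson 95% intervals, which cover counting error only. Counts were summed per library and group and tested with edgeR 4.0.16 (R 4.3.3; TMM, filterByExpr, quasi-likelihood, library as a block, Benjamini-Hochberg over all genes tested), with DESeq2 1.42.0 as an alternative. The library pairs its own sums, since the neurons of both groups came from the same library preparation. On simulated data with 8988 genes, edgeR called 50 of 50 genes raised 8-fold, 9 of 50 raised 2-fold, 37 of 43 tested genes lowered to 0.125-fold, 6 of 48 lowered to 0.5-fold and 0 of 8797 unchanged genes. List genes were named where at least 10% of members in each library had a UMI, and the 10 genes with the largest differences per direction by the rule given above; further genes, the sets of neurons and the mark of the choroid plexus barcode (at least 1000 *Ttr* UMIs) were chosen after their values were seen. Doublets were scored with Scrublet (scanpy 1.11.5) and not removed. Some genes are not reported here, so counts over a list may include genes that are not named. No sequences are shown because the genome used here is of another build.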

Additional observations from a re-analysis of the deposited data

How the results depend on the processing

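The counts of higher and lower genes (1004 and 751) stayed within 1.5 times with other minimums of UMIs, at most 10% mitochondrial UMIs, barcodes with *Abcc9*, high Scrublet scores or 2 UMIs of other CSF-contacting neuron genes left out, DESeq2 size factors, or no filter on low counts. With each neuron thinned to 3000 UMIs they were 382 and 365, of 3143 genes tested against 9116 in the main fit. With DESeq2's test they were 251 and 206, of 8408 genes given an adjusted p. Without the choroid plexus barcode, an alternative chosen after seeing the data, they were 1618 and 1515. Leaving out neurons with 1 or 2 UMIs of *Pkd2l1*, also chosen after seeing the data, gave 1420 and 1069. Without the replicate block, which pairs the sums of a library, they were 919 and 647. Leaving out a replicate left 20 to 39 neurons and *Slc17a6* shares of 30.8% to 42.1%. The log2 difference in a single library, which has no test, lay over 1 SE from the fitted one for 69 of 100 listed or named genes without replicate 1, besides *Ttr* below, and for 63 without replicate 2, so the size of most printed differences depends on the library. Thinning lowered the share of neurons with a UMI of *Slc17a6* to 22.4% and of *Slc32a1* to 44.8%. The sign of 3 differences turned, with the cause not tested: *Gad2* at 0.51 after thinning, *Tagln* at 0.085 without the highest Scrublet scores, and *Ttr* at −0.52 without replicate 1, which held the choroid plexus barcode, against 9.75 without replicate 2. The prior degrees of freedom of edgeR were infinite in the fits without the choroid plexus barcode, without neurons with 1 or 2 UMIs of *Pkd2l1*, on thinned counts, with DESeq2 size factors and with no filter, so these took no spread from single genes. Of 100 listed or named genes tested, 65 were called, and 21 of these calls were lost with DESeq2, including *Slc17a6* (adjusted p = 0.360), *Rbfox3* (0.345) and *Ttr* (0.590), with the others given beside their results where named. Without the choroid plexus barcode 7 more of the 100 were called and 1, *Ttr*, was lost. A limit of 10% mitochondrial UMIs ended 3 calls, and fitting without the replicate block also ended 3. Leaving out the highest Scrublet scores ended 1, besides *Tagln*, whose sign turned. Leaving out neurons with 2 or more UMIs of other CSF-contacting neuron genes ended 1. Thinning also ended 1, but many of the 100 genes fell under the filter on low counts and were not tested again. Of those still tested after thinning, 44 stayed called or uncalled, 1 more was called and 1, *Gad2*, turned its sign. With 1 residual degree of freedom and 19 and 39 neurons, a gene at 0 may have been missed, and the *Slc17a6* and *Slc32a1* classes were not compared with a test.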
